A study of Arabidopsis thaliana with 2 samples.

Results

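Late embryogenesis abundant (LEA) genes were compared between the mutant rge1-1 and the wild type Col-0 in siliques of Arabidopsis thaliana, the fruits that hold the seeds. The family was taken as 51 loci fixed by locus identifier, and a locus counted as measured where a probe of the arrays was named for that gene alone. This gave 28 measured LEA genes of 51, each with 1 probe, among 8819 named genes and 21426 rows in all, where a row is a gene or an unnamed probe. Some unnamed probes may belong to loci counted as not measured, and this was not checked. The members were fixed by locus and not by a measured value, although earlier results of these data were known when they were chosen.

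Whole siliques of both genotypes were collected at 12 DAF from untreated plants, which grew at 22 °C under a cycle of 16 h light and 8 h dark. The rge1-1 allele affects RGE1, a bHLH transcription factor that works in the endosperm, and its name refers to retarded embryo growth. Each of the 2 samples was a 2-colour array on which Cy3 marked RNA of rge1-1 and Cy5 marked RNA of Col-0, and the labels number them replicates 1 and 2. Nothing states that the replicates came from separate plants, so the p-values measure an array-to-array spread that may be technical.

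Every value below is a log2 ratio of the 2 channels. The deposited log ratios were taken as base 10, the usual form of the scanner software, although the base is not stated. If it is 2, each ratio is smaller by a factor of 3.32 and every fold given here is smaller too. The numerator is not stated either. A positive or negative ratio is therefore the deposited sign, and no sign is assigned to rge1-1 or to Col-0. With 0 arrays of swapped dyes, a dye bias of a probe and a genotype difference cannot be told apart. Ratios hold no levels, so the presence of seed or fruit wall markers could not be checked. In whole siliques, fewer cells of a type and less RNA per cell also cannot be told apart.

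LEA proteins are mostly very hydrophilic and accumulate in embryos late in seed maturation, before the seed dries. They are known for protecting membranes and enzymes during water loss. Many LEA genes respond to abscisic acid, and in seeds they act downstream of maturation regulators such as ABI3 and ABI5. Others are induced by cold or drought in leaves and roots. The family is divided by conserved sequence into the subgroups LEA_1 to LEA_5, the dehydrins, the seed maturation proteins (SMP), a group named for the bean protein PvLEA18, and the small AtM group.

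The measured members were unevenly spread over these subgroups. LEA_4 had 12 of 18 loci measured, the dehydrins 5 of 10, LEA_1 all 3 of 3, SMP 2 of 6, LEA_2 2 of 3, the PvLEA18 group 2 of 3 and AtM 2 of 2. LEA_5, which consists of the Em proteins EM1 (AT3G51810) and EM6 (AT2G40170, GEA6 in the gene table), had 0 of 2 loci measured. LEA_3, which includes SAG21 (AT4G02380) and DI21 (AT4G15910), had 0 of 4. Other well-known members not analysed here were the dehydrins ERD10, ERD14, RAB18, LTI30 and XERO1, the LEA_4 genes LEA7 and ECP63, and the SMP genes RAB28 and ATECP31. The remaining loci of the 23 without a named probe were LEA3 (AT1G02820) and AT3G53770 of LEA_3, AT1G72100, AT3G02480, UNE15 (AT4G13560) and AT4G36600 of LEA_4, AT5G53260 and AT5G53270 of SMP, LEA14 (AT1G01470) of LEA_2, and AT2G33690 of the PvLEA18 group.

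The LEA genes had small ratios of both signs. The median over the 28 genes was 0.074, against 0.083 over all 21426 rows. On replicate 1 the LEA ratios ran from -2.15 to 1.06 with a median of 0.11, and on replicate 2 from -0.67 to 0.26 with a median of -0.020. In 13 of the genes both ratios lay within 0.2 of 0, a count not made over all rows. The median distance of the gene means from 0, whatever their sign, was 0.12, or 1.09-fold from equal, and it was 0.16, or 1.12-fold, over all rows.

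No LEA gene passed the test of its ratio against 0. By limma with Benjamini-Hochberg adjustment over all rows, 0 of 28 LEA genes had an adjusted p under 0.05, and the background was 0% (0 of 21426 rows). The adjusted p-values of the LEA genes lay between 0.665 and 0.968. At an unadjusted p under 0.05 limma counted 2 LEA genes, or 7.14%, against 6.60% of all rows. Both were negative LEA_4 genes, and negative rows at that limit made up 3.09% of all rows. The share past the unadjusted limit was thus near the background.

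**Figure D1:**
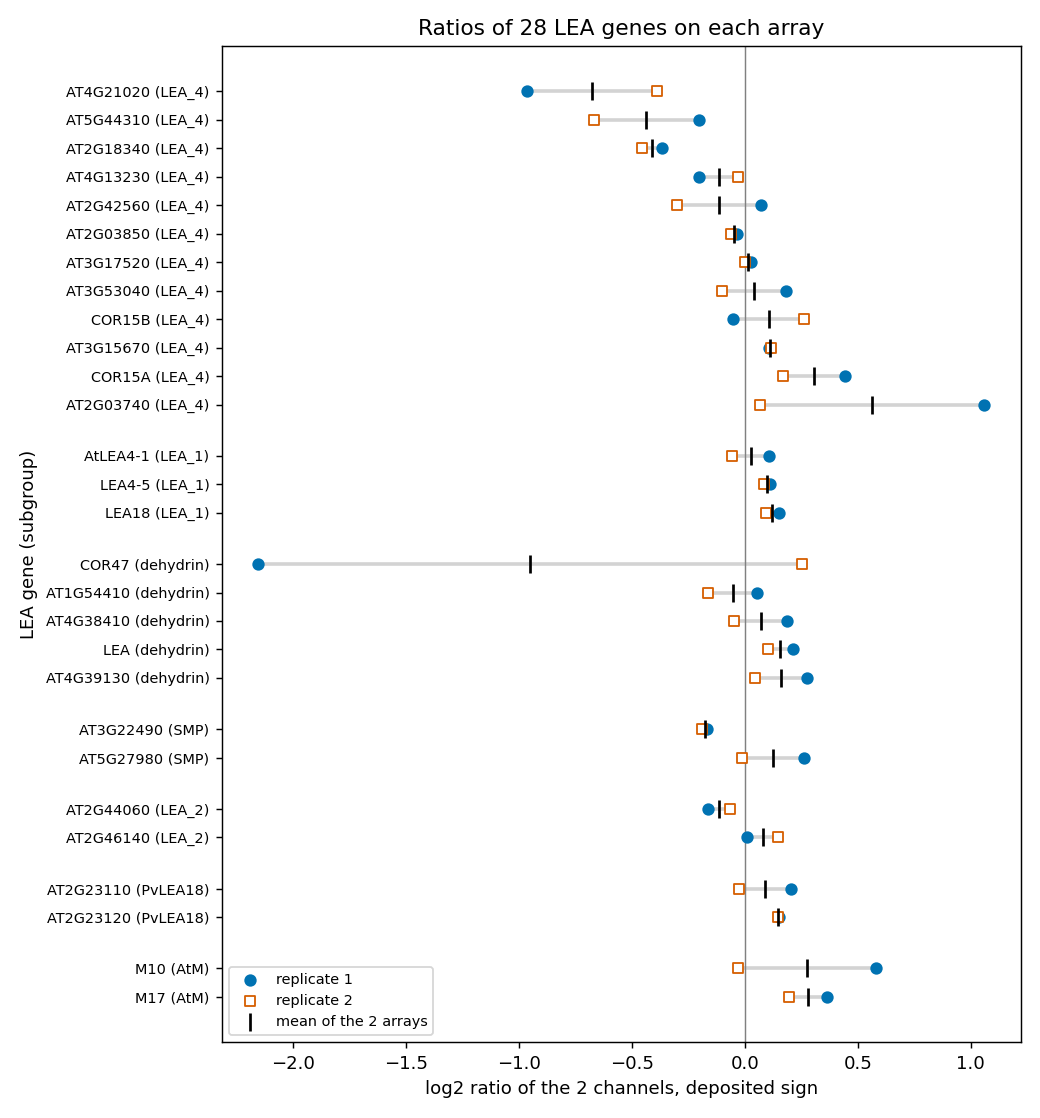
The log2 ratio (deposited sign, horizontal axis) of each of the 28 measured LEA genes on replicate 1 (filled circles) and replicate 2 (open squares), grouped by subgroup, with a bar at the mean and a grey line joining the 2 arrays. Most genes lie close to 0, AT4G21020, AT5G44310 and AT2G18340 of LEA_4 are negative on both arrays, and COR47 spans -2.15 to 0.25.

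LEA_4 was the largest subgroup, and its proteins are built from repeats of a short motif that can fold into amphipathic helices on drying. Of the LEA genes negative on both arrays, the 3 with the lowest means belonged to it. AT4G21020 had ratios of -0.96 on replicate 1 and -0.39 on replicate 2. Its mean was -0.68 ± 0.41 (SD, n = 2), or 1.60-fold from equal, with a 95% interval from -1.32 to -0.027. AT2G18340 had -0.37 and -0.46, a mean of -0.41 ± 0.063 (SD, n = 2) and an interval from -0.79 to -0.032. These 2 genes were the ones past the unadjusted limit, with limma's unadjusted p = 0.0452 and 0.0409, and both had an adjusted p of 0.665 over all rows. The arrays were closer together for AT2G18340 than for AT4G21020, although its mean was nearer to 0.

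AT5G44310, the other of these LEA_4 genes, had -0.20 on replicate 1 and -0.67 on replicate 2. Its mean was -0.44 ± 0.33 (SD, n = 2), and its interval from -1.003 to 0.13 included 0. The order of AT4G21020 and AT5G44310 differed between the arrays, so the 3 negative genes cannot be ranked among themselves. By distance of the mean from 0 they lay beyond 94.2% (AT4G21020), 87.1% (AT5G44310) and 85.7% (AT2G18340) of all rows.

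At the positive end of LEA_4 stood AT2G03740, with 1.06 on replicate 1 and 0.068 on replicate 2. Its mean of 0.56 ± 0.70 (SD, n = 2) rested on replicate 1. COR15A (AT2G42540), a chloroplast protein gene induced by cold, had 0.44 and 0.17, with a mean of 0.31 ± 0.19 (SD, n = 2). COR15B (AT2G42530), its adjacent relative with 0 genes between them, had -0.052 and 0.26, so the order of the pair turned between the arrays. As close relatives they may share probe signal, and this was not tested.

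The other 6 LEA_4 genes lay near 0. AT3G15670 had 0.11 and 0.12, a mean of 0.11 ± 0.0078 (SD, n = 2), and AT3G17520 had 0.026 and 0.0032. With each array centred on its median, AT3G15670 had -0.053 and 0.096. AT2G03850 stood at -0.032 and -0.062, and AT4G13230 at -0.20 and -0.029. Signs were opposite for AT2G42560, with 0.071 and -0.30, and for AT3G53040, with 0.18 and -0.10. Over the 12 genes of LEA_4 the median was -0.016, with 4 genes positive and 5 negative on both arrays. The shares of these signs over all rows were 42.5% and 16.6%. With centring the LEA_4 median was -0.11, with 2 genes positive and 7 negative on both arrays, against 30.6% of all rows for each sign. LEA_4 thus held mean ratios from -0.68 to 0.56 and had no common sign.

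LEA_1 proteins are known to protect enzymes during water deficit, and all its genes were measured. LEA4-5 (AT5G06760) had 0.11 on replicate 1 and 0.085 on replicate 2, and LEA18 (AT2G35300, also named LEA4-2) had 0.15 and 0.094. AtLEA4-1 (AT1G32560) had 0.11 and -0.056. The subgroup median was 0.098. The 3 means lay between 0.026 and 0.12, and with each array centred on its median the subgroup median was 0.0074.

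Dehydrins are LEA proteins with a conserved lysine-rich segment that are known for binding membranes in the cold and in drought. COR47 (AT1G20440), an acidic dehydrin induced by cold and drought, had -2.15 on replicate 1 and 0.25 on replicate 2. It was the lowest LEA gene on replicate 1 and the second highest on replicate 2. Its mean of -0.95 ± 1.70 (SD, n = 2) has an interval from -3.22 to 1.32 and describes neither array. Replicate 1 minus replicate 2 was -2.41, a gap wider than in 99.6% of all rows. Spot intensities and flags were not used here.

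The other dehydrins lay close to 0. AT2G21490, listed simply as LEA in the gene table, had 0.21 and 0.10, with a mean of 0.16 ± 0.080 (SD, n = 2). AT4G39130 had 0.28 and 0.046, with a mean of 0.16 ± 0.16 (SD, n = 2). Both were positive on both arrays. AT4G38410, with 0.19 and -0.046, and AT1G54410, the histidine-rich dehydrin HIRD11, with 0.056 and -0.16, had opposite signs. The dehydrin median was 0.070, and it was -0.021 with centring.

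The SMP genes encode seed maturation proteins. AT3G22490 had -0.17 on replicate 1 and -0.19 on replicate 2, with a mean of -0.18 ± 0.016 (SD, n = 2). As deposited, its ratios were the closest together among the negative LEA genes, and its interval from -0.55 to 0.19 still included 0. With each array centred, AT3G22490 had -0.33 and -0.21, further apart than the -0.53 and -0.48 of AT2G18340. AT5G27980 had 0.26 and -0.013. LEA_2 proteins differ from the rest of the family in having a folded structure and a less hydrophilic sequence. AT2G44060 (also named LEA26) had -0.16 and -0.064, and AT2G46140 (also named LEA27) had 0.010 and 0.15. Neither subgroup had a common sign.

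The 2 measured genes of the PvLEA18 group, which encode small proteins, adjoin each other on the chromosome with 0 genes between them. AT2G23120 had 0.15 on both arrays, with an SD of 0.0021 (n = 2), the smallest of any LEA gene as deposited. With each array centred on its median, AT2G23120 had -0.010 and 0.12, of opposite sign. AT2G23110 had 0.21 and -0.027. The AtM genes M17 (AT2G41260) and M10 (AT2G41280) are also adjacent. M17 had 0.36 and 0.19, with a mean of 0.28 ± 0.12 (SD, n = 2), and M10 had 0.58 and -0.032, with a mean of 0.27 ± 0.43 (SD, n = 2). Their means were alike, but which of the pair was higher differed between the arrays.

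Counted by sign, 11 of 28 LEA genes (39.3%) were positive on both arrays, against 42.5% of all rows. Another 7 (25%) were negative on both, against 16.6%, and 10 (35.7%) had opposite signs, against 37.8%. These counts depend on the centre of each array, since the median of all rows was 0.16 on replicate 1 and 0.022 on replicate 2. With each array centred on its median, 5 LEA genes (17.9%) were positive on both arrays, against 30.6% of all rows. Negative on both were 11 (39.3%), also against 30.6%. The median of the LEA genes became -0.017. Centring lowers each mean by 0.091, and 6 means turned from positive to negative by it, those of AtLEA4-1, AT2G46140, AT3G17520, AT3G53040, AT2G23110 and AT4G38410. AT4G21020, AT5G44310 and AT2G18340 then stood at -0.77, -0.53 and -0.50, and COR15A, M17 and M10 at 0.22, 0.19 and 0.18.

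Few LEA genes were far from equal on both arrays. Below -0.32 on both arrays, which is less than 1.5-fold from equal, were 2 genes, AT4G21020 and AT2G18340, or 7.14%, against 3.61% of all rows. Above 0.32 on both arrays were 0 genes, against 3.90% of all rows. At 1.5-fold with 1 sign the count was 0, against 2.54% of all rows, and at 2-fold it was also 0, against 0.691%. With 28 genes, backgrounds of this size amount to about 1 gene or fewer.

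**Figure D2:**
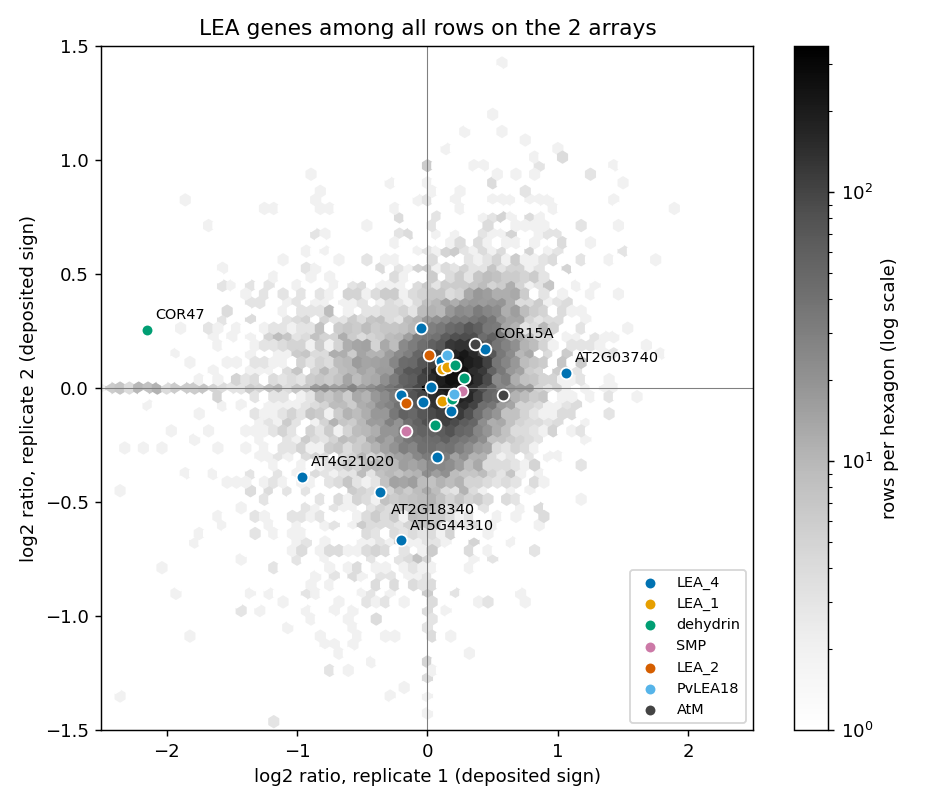
The log2 ratio on replicate 1 (horizontal axis) against replicate 2 (vertical axis), with all rows as grey hexagons shaded by the number of rows on a log scale and the 28 LEA genes as points coloured by subgroup. The axes end at 2.5 and 1.5, and most LEA genes lie inside the dense centre, with COR47 far to the left.

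The arrays were also set against each other gene by gene. Across the 28 LEA genes, which share the same arrays and RNA and are no independent replicates, Pearson's r was 0.12 and Spearman's rho 0.36. Without COR47 these were 0.54 and 0.51, so the first value rests on that gene. Over all rows they were 0.34 and 0.27. The median SD of an LEA gene was 0.14, against 0.17 over all rows, and 11 of the 28 had an SD under 0.1. Replicate 1 was higher than replicate 2 for 21 of the 28, beside a difference of the array medians in the same direction. Neither of these last 2 counts was made over all rows, so they are not read as traits of the LEA genes.

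The intervals limit the size of the ratios. The median 95% interval of an LEA gene extended 0.41 to either side of its mean, or 1.33-fold, against 0.43, or 1.35-fold, over all rows. For 18 of 28 genes the whole interval lay within 1.5-fold of equal, and for 24 within 2-fold. The exceptions at 2-fold were COR47, AT2G03740, AT4G21020 and AT5G44310. The intervals of all rows were not counted this way, so these counts show no trait of the LEA genes. Each interval comes from limma's moderated spread for a single gene, covers the spread between the arrays only, and does not cover dye bias.

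**Figure D3:**
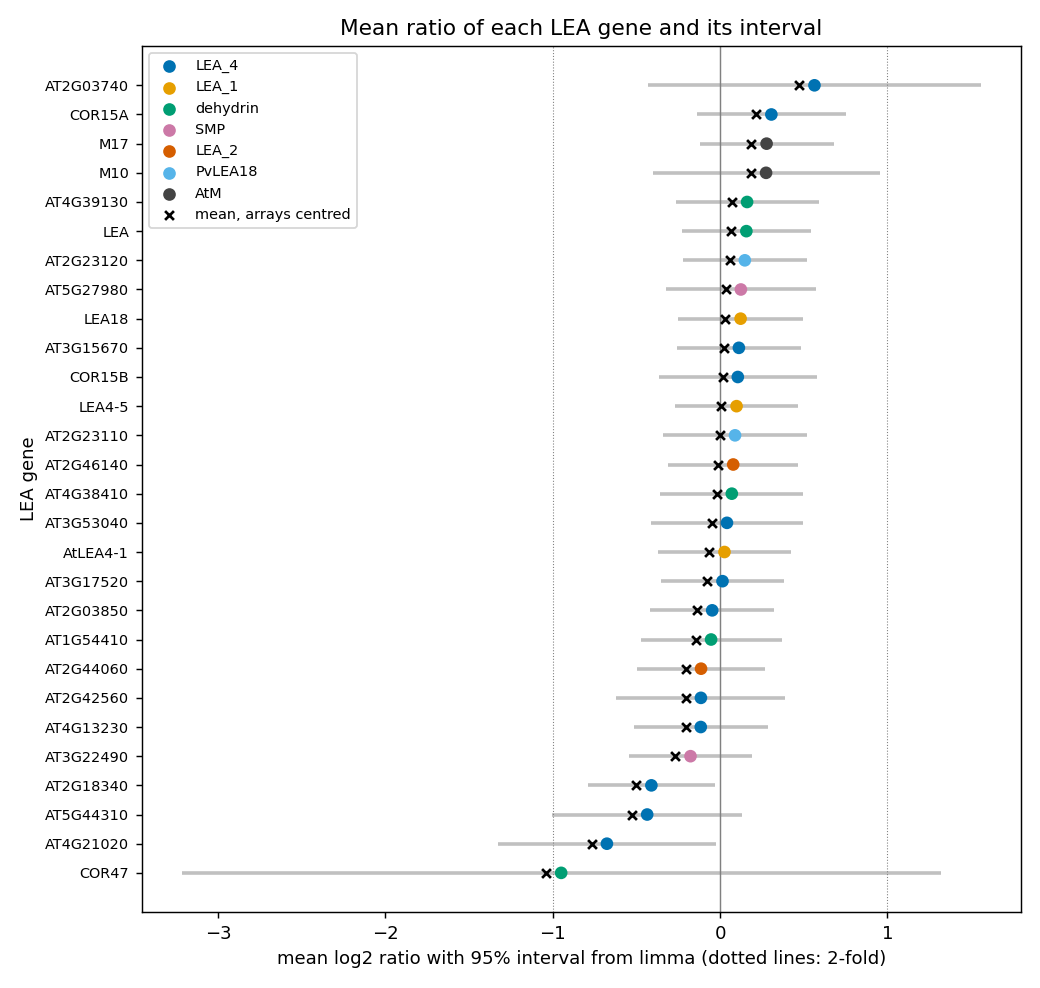
The mean log2 ratio (deposited sign) of each LEA gene, ordered from highest to lowest and coloured by subgroup, with its 95% interval from limma in grey and the mean after centring each array as a cross. The intervals of AT2G18340 and AT4G21020 lie below 0, the other 26 include 0, and that of COR47 is the widest.

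Genes that act with the LEA family were sparsely measured. Of 89 genes in 4 lists, 5 had a named probe. Of these, 0 passed limma's test over all rows, and 0 had an unadjusted p under 0.05 by limma. The shares over all rows were 0% and 6.60%, so with 5 genes these counts show no trait of the lists. Among 17 seed maturation regulators 2 were measured. EEL (AT2G41070), a bZIP factor that binds the EM1 promoter in competition with ABI5, had 0.15 on replicate 1 and 0.042 on replicate 2. BZIP53 (AT3G62420), a bZIP factor that activates maturation genes, had 0.053 and 0.098. Of 36 genes of abscisic acid synthesis, breakdown and signalling 0 had a named probe, although unnamed probes may belong to some of them.

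Among 20 genes of the cold and dehydration response 2 were measured, the neighbours KIN1 and KIN2, which encode small proteins induced by cold and abscisic acid. KIN2 (AT5G15970) had -0.057 and -0.038, whereas KIN1 (AT5G15960) had 0.99 on replicate 1 and -1.02 on replicate 2. KIN1 thus had ratios of opposite sign and similar size, and its mean of -0.012 ± 1.42 (SD, n = 2) describes neither array. Of 16 other genes of desiccation tolerance 1 was measured, the small heat shock protein gene ATHSP22.0 (AT4G10250), with 0.40 and 0.055.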

How the data were processed

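Per the submitters' processing notes, the arrays were read with Agilent Feature Extraction 7.1.1. The authors deposited 1 log ratio per probe and array, taken here as log10. How background, dyes and filters were treated is not given in the sources used here. Values were converted to log2 without centring. Of 21500 probes, 8893 had 1 gene name in the platform annotation, matched by gene ID to the TAIR10.1 table, and 12568 had none. Probes of a gene were averaged (71 genes, 0 of them LEA). Each of 21426 rows was tested across the whole table against 0 with limma 3.58.1 in R 4.3.3 (intercept only, eBayes, two-sided, Benjamini-Hochberg). The procedure was also run on data simulated under limma's own assumptions, which cannot test those assumptions for these arrays. The number of arrays limits the precision. LEA genes with a value of exactly 0 numbered 0.

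Members, subgroups (from the known classification of the family) and lists were chosen with earlier results of these data known. All measured members, and up to 4 genes per list by distance of the mean from 0, were named. Alternatives changed centring, scaling, zeros, probe averaging, log base, eBayes, the rows tested and the arrays. Sequences are not shown here.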

Additional observations from a re-analysis of the deposited data

How the results depend on the processing

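The count of LEA genes past limma's test was 0 in all 10 other fits, with the lowest adjusted p of a member between 0.338 and 0.808. The same held for the 5 measured list genes. When rows with a value of exactly 0 were left out, limma called 55 of 20761 rows, none of them an LEA gene. In every other fit no row at all was called, so the LEA count there is nothing particular to LEA genes. At an unadjusted p under 0.05 limma counted 2 or 3 LEA genes in each fit. The share of all rows past that limit was lowest with no moderation (1052 of 21221). It was highest with rows of exactly 0 left out (1981 of 20761). AT5G44310 joined with centring, with the running median along probe IDs subtracted, and with zeros left out and centring. In these fits the count over all rows was higher too, at 1696, 1744 and 1794 against 1415. With no moderation the genes were instead AT2G23120, AT3G15670 and AT3G22490. The LEA median of 0.0743 became -0.0168 with centring, -0.0222 with scaling as well, and -0.0245 with the running median; on the separate arrays it was -0.0204 without replicate 1 and 0.108 without replicate 2. The cause was not tested beyond the shift of the array medians. The count of 0 LEA genes at least 1.5-fold from equal on both arrays became 2 when the limit was lowered to 0.32 on the log2 scale. At 1.5-fold on a single array, where no agreement of sign is required, it was 1 without replicate 1 and 3 without replicate 2. The single-array counts were not made over all rows, so they are not read as traits of the LEA genes. The count of 1 sign on both arrays was 16 to 18 and cannot be had from 1 array. Read as log2, every ratio is smaller by a factor of 3.32 and the p-values stay as they are. The LEA median is then 0.0224, AT4G21020 stands at -0.203 or 1.15-fold from equal, 0 genes pass the lower limit of 0.32, and 27 and 28 intervals lie within 1.5-fold and 2-fold. The running median, the combined setting, the log2 reading of the lower limit and the intervals, and the median without COR47 (0.0785) were chosen after seeing the data. No paired analysis was possible because the 2 arrays form 1 group.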
